A study of Mus musculus with 6 samples.

Results

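Plvap-positive endothelial cells were examined in single-cell RNA sequencing (scRNA-seq) of tissue lining the adult mouse cortex, where 242 of 8804 kept cells met the rule that defines them. The rule was applied to all 6 libraries, which held 17560 barcodes. A barcode was kept with at least 500 detected genes and at most 10% of its unique molecular identifiers (UMIs, counts of captured transcripts) on mitochondrial genes. A kept cell was gated as endothelial with at least 1 UMI of 2 or more of the 5 genes Pecam1, Emcn, Flt1, Kdr and Gpihbp1 and with 0 UMIs of the leukocyte gene Ptprc and the smooth muscle gene Cnn1, which left 1177 cells. A Plvap-positive cell was a gated cell with at least 2 UMIs of Plvap, at most 1 of the 6 arterial genes Gkn3, Sema3g, Bmx, Cytl1, Stmn2 and Fbln5 detected, and at most 2 of the 6 barrier genes Slco1a4, Slc2a1, Slc38a5, Slco1c1, Abcb1a and Spock2 detected. The rule uses measured values, so the levels of its 20 genes describe the choice of cells and are not results.

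The study dissociated 2 kinds of preparation from untreated wild-type C57BL6 mice, adults of both sexes: the cortical surface with its leptomeninges (4 libraries) and the tissue of the inner face of the skull, which holds the dura (bone-associated, 2 libraries, tissue label Dura/Skull). Each library pooled several mice, so the library and not the mouse or the cell is the replicate, and variation between single mice was not measured. No transgene, treatment or time course entered these samples, and mice were not perfused. Viable nucleated cells were sorted without an endothelial marker before capture on the 10x Chromium system. The 2 bone-associated libraries held 12041325 and 27511208 UMIs and gave 963 and 2502 kept cells. Cortical surface libraries 1 to 4 held 8408685, 16998497, 55385796 and 56169736 UMIs and gave 743, 1252, 1103 and 2241 kept cells. Cortical surface libraries 3 and 4 stood apart from the rest, since 84.6% and 71.9% of their UMIs came from hemoglobin genes, against at most 0.520% in the other libraries. The kept cells of different libraries shared 11 barcodes in all, and 3 of them were barcodes of Plvap-positive cells, of which none was Plvap-positive in 2 libraries.

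Plvap encodes the protein that forms the diaphragms across the fenestrae and caveolae of permeable endothelium. Vessels of the dura mater are permeable and many are fenestrated, whereas most vessels of the brain and leptomeninges are sealed by tight junctions, are kept in that state by Wnt and beta-catenin signaling and do not normally hold PLVAP in the adult. Capillaries of the choroid plexus and circumventricular organs are exceptions, which are fenestrated and carry PLVAP. Emcn (endomucin, a sialomucin of capillary and venous endothelium), Kdr (the main VEGF receptor) and Gpihbp1 (which carries lipoprotein lipase to the capillary lumen) were the other markers given for these cells. In the mm10 (GRCm38) annotation, Plvap lies at chr8:71497765-71511752 on the minus strand, Emcn at chr3:137341067-137432185, Gpihbp1 at chr15:75596628-75599481 and Kdr at chr5:75932827-75978458.

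All 4 given markers were present in the cells that the rule chose. Levels were summed over the cells of a class in a library and scaled to a total of 1000000 UMIs (CPM). On this scale Plvap stood at 2598 and 2469 CPM in bone-associated libraries 1 and 2, Emcn at 1765 and 2005, Kdr at 1929 and 1208 and Gpihbp1 at 382 and 580. A Plvap-positive cell of the bone-associated libraries held a median of 16 Plvap UMIs (interquartile range 10 to 23, from 2 to 108). Background was low: of the 497 T or NK cells of the same libraries, which should lack Plvap, 5 (1.01%) held a Plvap UMI, at a median depth of 6363 UMIs against 6333.5 in the Plvap-positive cells. At the edge of the rule, 5 of the 234 bone-associated members held exactly 2 Plvap UMIs and 5 held 3, while 14 gated cells with exactly 1 Plvap UMI met the other limits and stayed outside. Gpihbp1 was not shared by all members, as 58.1% of them held a UMI of it, against 97.4% for Kdr and 99.6% for Emcn.

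To ask where these cells were found, their share of the gated endothelial cells was compared between preparations. It was 30.2% (49 of 162 cells, 95% exact Clopper-Pearson interval 23.3 to 37.9%) in bone-associated library 1 and 43.4% (185 of 426, 38.7 to 48.3%) in bone-associated library 2. In cortical surface libraries 1 to 4 it was 1.16% (1 of 86), 2.88% (6 of 208), 1.19% (1 of 84) and 0% (0 of 211, where the exact interval reaches 1.73% and a limit of 3 counts gives 1.42%). The 2 groups did not overlap, and every bone-associated library was above every cortical surface library. The mean share was 36.8% ± 9.32 (SD, n = 2) in the bone-associated and 1.31% ± 1.19 (SD, n = 4) in the cortical surface libraries, a difference of 35.5 percentage points. Of the 8 cortical surface cells 6 came from library 2, and without it the cortical surface mean was 0.784%. An exact two-sided permutation test gave p = 0.133, which is the smallest that 4 libraries against 2 allow, so this design cannot pass a threshold of 0.05. Intervals and limits cover counting error only, and dissection and digestion differed along with the tissue and cannot be told apart from it.

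**Figure D1:**
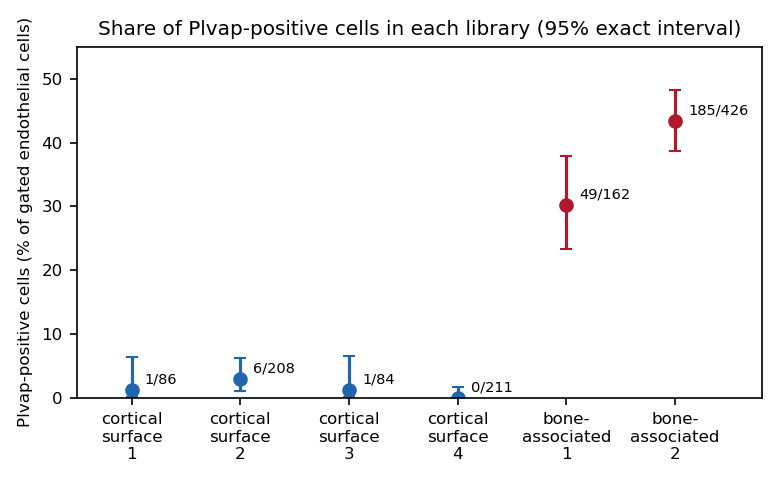
Percent of gated endothelial cells that were Plvap-positive in each of the 6 libraries (y axis), with 95% exact binomial intervals and the cell counts beside each point. The bone-associated libraries (red) sit at 30.2% and 43.4%, above the cortical surface libraries (blue), of which the highest is at 2.88%.

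Plvap itself was spread more widely among bone-associated vessels than the rule shows. Of the 588 gated cells of the bone-associated libraries, 352 held at least 2 Plvap UMIs, and 118 of those stayed outside because 67 of them had at least 3 barrier genes, 57 had at least 2 arterial genes and 6 of them had both. Of the 589 gated cells of the cortical surface, 575 held no Plvap UMI, 5 held 1 and 9 held at least 2, of which 8 met the rule.

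Gene expression was then compared within the bone-associated libraries against the other endothelial classes of the same libraries. Barrier-type cells (93 cells, 31 and 62 per library) had at most 1 Plvap UMI, at most 1 arterial gene and at least 3 barrier genes. Arterial-type cells (113 cells, 37 and 76) had at most 1 Plvap UMI and at least 2 arterial genes. The sums per class in each library were tested by edgeR's quasi-likelihood method with library as a block. A gene was called where the adjusted p (Benjamini-Hochberg) was below 0.05 and the log2 fold change was 1.3 or more in either direction. Genes found in more than 10% of the cells of at least 1 class were tested. A gene all but absent from 1 class could therefore only be called higher in the other, and counts over the gene lists include such genes. Against barrier-type cells 424 of 8092 genes outside the rule were called higher in Plvap-positive cells (5.24%) and 385 lower (4.76%), or 10.0% of genes in either direction. Against arterial-type cells 325 of 7778 were called higher (4.18%) and 303 lower (3.90%), or 8.07% in either direction. With DESeq2, another count model, 356 and 278 genes were called, and 413 to 443 and 386 to 406 were called with 1 bone-associated library left out. Both comparisons use the same Plvap-positive cells and so are not independent of each other, and genes that vary together with the 20 genes of the rule were bound to differ. The tests rest on 2 libraries and 1 residual degree of freedom, and in the barrier-type comparison edgeR gave every gene the spread of the trend, so adjusted p-values there rest on the spread common to genes of like level and not on the 2 libraries of 1 gene.

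The abundant capillary genes Plpp3, Plpp1, Rgcc and Nrp1 were higher in Plvap-positive cells than in both other classes. Of the 18 genes listed for fenestrated and continuous capillary endothelium, 16 were tested against barrier-type cells. Of these 13 were called higher and 1 lower, where 5.24% and 4.76% of all genes were. The median log2 fold change was 3.73 against -0.01 over all genes tested. Among the 13, Cd36, Pparg, Esm1, Fabp4 and Aqp1 had at most 1 UMI in barrier-type cells, Cyp4b1 had 2 and Fabp5 had 4. At least these genes entered the test only through the Plvap-positive class and could not have been called lower. Against arterial-type cells 9 of 16 were called higher and none lower, where 4.18% and 3.90% of all genes were. The median there was 1.86 against 0.01. The most abundant gene of the list was Plpp3, a phosphatase of bioactive lipids such as lysophosphatidic acid. It stood at 2239 and 1912 CPM in libraries 1 and 2, against 132 and 108 in barrier-type and 150 and 185 in arterial-type cells. The 2 libraries of the Plvap-positive class lay close together and far above the 4 other values. Its log2 fold change was 4.04 ± 0.14 (SE, edgeR adjusted p = 1.6e-166) over barrier-type and 3.55 ± 0.16 (adjusted p = 2.5e-12) over arterial-type cells.

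The related phosphatase Plpp1 stood at 1163 and 1022 CPM, against 71.7 and 116 in barrier-type and 125 and 155 in arterial-type cells. Rgcc, a regulator of the cell cycle and of complement responses that marks capillaries, stood at 1171 and 1056 CPM, against 135 and 140, and 191 and 207. Rgcc was also at 304 CPM in the T or NK cells of these libraries. Nrp1, a coreceptor for VEGF and semaphorins, stood at 1329 and 834 CPM, against 195 and 168, and 397 and 299. For none of these 3 genes did the Plvap-positive values overlap those of another class, and each was called higher in both comparisons. The exception in the list was Car4, a carbonic anhydrase of the capillary surface, which was lower than in barrier-type cells at 58.1 and 11.3 CPM against 496 and 281 (log2 fold change -3.85).

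Esm1 (endocan, a proteoglycan secreted by endothelium that responds to VEGF) was at 303 and 288 CPM in Plvap-positive cells. Barrier-type cells held 1 UMI of it in all, so the ratio of 258-fold has a wide counting interval (46.1 to 10209), and arterial-type cells held 4 UMIs. The log2 fold change was 7.74 ± 0.47 over barrier-type and 5.96 ± 0.45 over arterial-type cells, which placed Esm1 among the most strongly raised genes in both comparisons. Igfbp3, a secreted binding protein for insulin-like growth factors, reached 1913 and 1623 CPM, against 14.3 and 18.7 in barrier-type and 142 and 212 in arterial-type cells (log2 fold changes 6.60 ± 0.20 and 3.23 ± 0.17). For all genes, 5.24% were called higher and 4.76% lower than in barrier-type cells, and 4.18% higher than in arterial-type cells. Of the 8 tested genes of the insulin-like growth factor list, 6 were called higher than in barrier-type cells and 1, the receptor Igf1r, lower. Against arterial-type cells 5 of the 8 were called higher. Among them Igfbp7, the most abundant, stood at 3526 and 3760 CPM and was called against arterial-type cells only (log2 fold change 1.87, and 1.24 against barrier-type cells). Igfbp4 stood at 419 and 645 CPM and was called higher than in barrier-type cells (log2 fold change 3.21). Insr, the insulin receptor, stood at 476 and 331 CPM and was called higher in both comparisons (log2 fold changes 1.59 and 2.65).

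**Figure D2:**
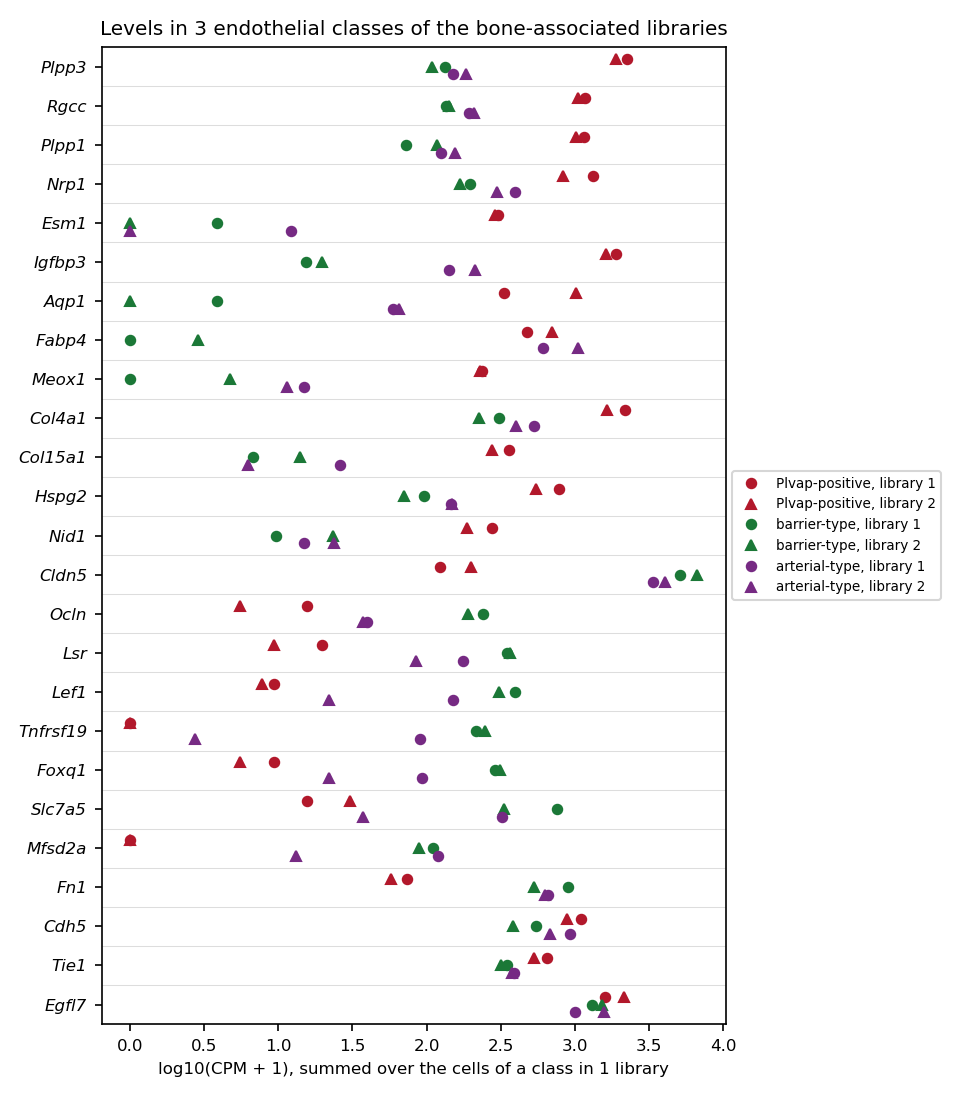
Levels of 25 genes as log10(CPM + 1) (x axis) in Plvap-positive (red), barrier-type (green) and arterial-type (purple) cells of bone-associated libraries 1 (circles) and 2 (triangles), 1 point per class and library. Plpp3 to Nid1 lie to the right in red against green, Cldn5 to Fn1 lie to the left, and Cdh5, Tie1 and Egfl7 lie close together in the 3 classes.

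The sequence just before the start sites is shown for Esm1, which was higher in Plvap-positive cells than in both other classes, and for Cldn5, which was lower than in both (described next). Both are the 250 bases upstream of the RefSeq start site (GRCm38.p6), given in the direction of the gene (plus strand for both), at chr13:113209409-113209658 and chr16:18776597-18776846. Capitals mark every match to AGGAA, the core bound by ETS factors, or CTTTGA, the core bound by TCF and LEF factors, searched on both strands (TTCCT and TCAAAG on the other strand).
Esm1: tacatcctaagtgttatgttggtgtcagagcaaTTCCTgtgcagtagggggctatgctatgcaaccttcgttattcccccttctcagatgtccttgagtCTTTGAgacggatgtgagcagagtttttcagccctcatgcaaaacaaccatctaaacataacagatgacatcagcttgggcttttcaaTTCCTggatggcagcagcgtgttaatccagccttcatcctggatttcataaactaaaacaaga
Cldn5: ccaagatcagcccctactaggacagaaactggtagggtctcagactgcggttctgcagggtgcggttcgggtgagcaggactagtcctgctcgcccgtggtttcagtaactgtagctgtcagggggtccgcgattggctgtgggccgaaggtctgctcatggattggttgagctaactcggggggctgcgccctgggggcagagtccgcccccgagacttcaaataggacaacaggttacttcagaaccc
The Esm1 window held 2 matches to the ETS core and 1 to the TCF/LEF core, and the Cldn5 window held neither. Other windows read in the same way did not share this contrast. That of Igfbp3, higher in both comparisons, held neither core, and that of Lef1, lower than in barrier-type cells, held 1 match to the ETS core. Of 27025 promoters of this length 60.2% held the ETS core and 14% the TCF/LEF core. Among the called genes with a promoter in the table, the TCF/LEF core was in 7.12% of 309 promoters of genes higher in Plvap-positive than barrier-type cells, in 12% of 292 of those lower, and in 10.2% of 6416 of all genes tested. The ETS core was in 56.6%, 54.5% and 53.2% of the same promoters. A match of letters is a description of this window and not a binding site.

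Genes of the sealed vessel were low. Of the 20 listed barrier genes outside the rule, 19 were tested against barrier-type cells, and 15 were called lower and none higher (median log2 fold change -3.95), as the choice of cells by other barrier genes would favor. The 4 others, Slco2b1, Abcg2, Vwa1 and Ly6c1, were not called. Of the most abundant genes of the list, Ly6c1 stood at 1790 and 1598 CPM against 2167 and 1732 in barrier-type cells, and Itm2a at 451 and 357 against 3308 and 2775, which was called lower. Against arterial-type cells 6 of 14 were called lower and 3 (Slco2b1, Vwa1 and Nostrin) higher. Over all genes, 4.76% were called lower and 5.24% higher than in barrier-type cells, and 3.90% and 4.18% than in arterial-type cells. Cldn5, which encodes the main claudin of brain endothelial tight junctions (chr16:18776847-18778262), stood at 123 and 197 CPM in Plvap-positive cells, against 5134 and 6712 in barrier-type and 3376 and 4080 in arterial-type cells. The Plvap-positive values lay below all 4 others (log2 fold changes -5.27 ± 0.11 and -4.61 ± 0.14).

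Of the other junction genes, Ocln and Lsr were lower in both comparisons, and the abundant adherens junction genes Cdh5 and Ctnnb1 were not called. Ocln (occludin) stood at 14.5 and 4.52 CPM against 241 and 189 in barrier-type cells, and Lsr (the angulin of tricellular junctions) at 18.7 and 8.29 against 347 and 365. Neither gene overlapped between these classes. Cdh5 (VE-cadherin) stood at 1107 and 884 CPM against 548 and 382 in barrier-type cells (log2 fold change 1.05), and Ctnnb1 (beta-catenin), at 766 and 662 against 786 and 574 (log2 fold change 0.02). Gja1, a gap junction connexin, was at 320 and 310 CPM against 88.9 and 59.8 and was called higher in both comparisons. In all, 3 of 12 tested junction genes were called higher and 5 lower than in barrier-type cells. Against arterial-type cells 1 of 13 was called higher and 6 lower. The shares over all genes were 5.24% higher and 4.76% lower against barrier-type cells, and 4.18% and 3.90% against arterial-type cells.

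Several targets of Wnt and beta-catenin signaling were lower, and so was the coreceptor Adgra2, while the receptor Fzd4 was not. Of 15 tested genes of this pathway 7 were called lower and 2 higher than in barrier-type cells, and 4 and 2 of 12 against arterial-type cells. Over all genes, 4.76% were called lower and 5.24% higher in the former comparison, and 3.90% and 4.18% in the latter. The receptor Fzd4 stood at 355 and 219 CPM, against 209 and 112 in barrier-type and 83.2 and 97.5 in arterial-type cells, and its coactivator Tspan12 at 197 and 194 CPM, against 103 and 74.8, and 69.4 and 71.4. Both were called against arterial-type cells only. Lef1, the nuclear partner of beta-catenin in these vessels, stood at 8.31 and 6.78 CPM against 393 and 307 in barrier-type cells (log2 fold change -5.55 ± 0.29). Tnfrsf19, a member of the TNF receptor family, was at 0 UMIs in the Plvap-positive cells of both libraries, against 215 and 249 CPM in barrier-type cells, at least 142-fold lower with a floor of 3 counts over the class, a call that was lost with DESeq2. The feedback genes Axin2 and Nkd1 and the barrier transcription factor Foxq1 were also called lower than in barrier-type cells. Sox17 was lower than in both classes, at 91.4 and 153 CPM against 390 and 475 in barrier-type and 907 and 602 in arterial-type cells.

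Of 20 tested pan-endothelial genes 3 were called in each of the comparisons, where 10.0% and 8.07% of all genes were called, and the median log2 fold change was 0.32 against barrier-type and 0.10 against arterial-type cells. Egfl7 stood at 1609 and 2157 CPM against 1299 and 1524 in barrier-type cells. Ptprb, the vascular endothelial phosphatase, stood at 2058 and 1318 CPM against 1754 and 1006. The 3 genes called against barrier-type cells were Cldn5 and Sox17, lower, and Eng, a TGF-beta coreceptor, higher at 1180 and 1171 CPM against 401 and 436. Against arterial-type cells they were again Cldn5 and Sox17, lower, and Robo4, higher.

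Basement membrane genes were mostly called higher than in barrier-type cells and were more mixed against arterial-type cells. Of 16 tested against barrier-type cells 10 were called higher and 1 lower, with a median log2 fold change of 1.35. Against arterial-type cells 8 of 17 were called higher and 3 lower. For comparison, 5.24% of all genes were called higher and 4.76% lower in the former test, and 4.18% and 3.90% in the latter. Col4a1, the major type IV collagen chain, stood at 2179 and 1642 CPM, against 310 and 226 in barrier-type and 533 and 399 in arterial-type cells. Its partner Col4a2 stood at 1371 and 1119 CPM, against 189 and 137, and 322 and 205. Hspg2 (perlecan) stood at 785 and 546 CPM, against 94.6 and 69.2, and 144 and 148. These 3 genes and Col15a1, Nid1 and Lamb1 were called higher in both comparisons. Sparc, a matrix protein of endothelium, was abundant but not called, at 1796 and 1739 CPM against 1236 and 1062 in barrier-type cells. Fn1 (fibronectin) was called lower in both comparisons, at 72.7 and 56.5 CPM against 894 and 533 in barrier-type and 658 and 625 in arterial-type cells.

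**Figure D3:**
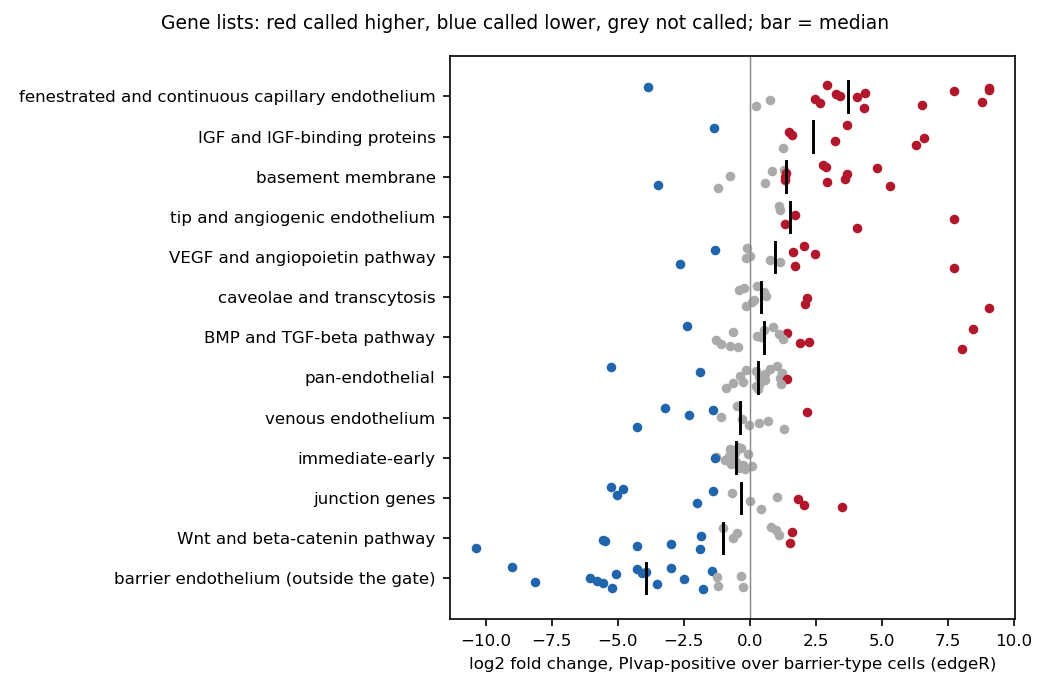
Log2 fold change of Plvap-positive over barrier-type cells in the bone-associated libraries (x axis) for the tested genes of 13 gene lists, with genes of the rule left out. Red points were called higher, blue points called lower and grey points not called, and black bars mark the medians, from 3.73 for the capillary list to -3.95 for the barrier list.

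VEGF and angiopoietin genes were mixed, where 10.0% of all genes were called against barrier-type and 8.07% against arterial-type cells. Of 12 tested genes 5 were called higher and 2 lower than in barrier-type cells, and 5 of 11 higher and 1 lower than in arterial-type cells. Besides Nrp1 and Esm1, Flt4 (VEGF receptor 3) stood at 143 and 142 CPM, against 48.7 and 39.3 in barrier-type and 16.6 and 38.3 in arterial-type cells, and was called higher in both. The angiopoietin receptors Tek (407 and 262 CPM against 396 and 301 in barrier-type cells) and Tie1 (650 and 530 against 350 and 316) were not called in either comparison. Vegfc was lower in both, at 33.2 and 50.5 CPM against 83.1 and 118 in barrier-type and 269 and 310 in arterial-type cells. Of the tip and angiogenic list, 4 of 6 tested genes were called higher than in barrier-type cells and 4 of 7 higher than in arterial-type cells, and none lower. At least Esm1 and Mcam, with 1 and 8 UMIs in barrier-type cells, entered the former test only through Plvap-positive cells. At least Esm1 and Aplnr, detected in 1.77% and 2.65% of arterial-type cells, entered the latter in the same way. These genes could not have been called lower there. Mcam of this list, an adhesion molecule, stood at 170 and 155 CPM, against 8.60 and 9.35 in barrier-type and 99.9 and 127 in arterial-type cells, and was called against barrier-type cells only. Of the cell cycle list 1 of 6 tested genes was called, Stmn1, which was lower than in both classes, while Tubb5 (388 and 433 CPM against 398 and 496 in barrier-type cells) and Hmgb2 (160 and 120 against 172 and 146) were not.

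Some BMP, Notch and caveolar genes were called, and abundant members of each list were not. Over all genes, 5.24% were called higher and 4.76% lower than in barrier-type cells, and 4.18% and 3.90% than in arterial-type cells. Bmp6, a BMP ligand, had 126 UMIs in Plvap-positive cells (54.0 and 75.4 CPM) and none in barrier-type cells, which makes it at least 20.5-fold higher with a floor of 3 counts over the class. Its call was lost with DESeq2 and without either bone-associated library. Inhbb, the inhibin beta B subunit, had 92 UMIs (43.6 and 53.5 CPM) against none in barrier-type cells. Bmp6 was not called against arterial-type cells (49.9 and 59.2 CPM, log2 fold change 0.20). In all, 5 of 17 tested genes of the BMP and TGF-beta list were called higher than in barrier-type cells and 1, Bmp2, lower. Against arterial-type cells 2 of 17 were called higher and 1 lower. The abundant targets Id3 (1263 and 1681 CPM against 1686 and 2154 in barrier-type cells) and Id1 (366 and 555 against 1089 and 817) were not called, and Bmpr2, a BMP receptor, was not called either (841 and 459 against 447 and 368). Of the Notch list 2 of 10 tested genes, Dll4 and Nrarp, were called higher than in barrier-type cells and none lower. Against arterial-type cells 4 of 11, Jag1, Jag2, Hey1 and Hey2, were called lower and none higher. Hes1, the most abundant Notch target, stood at 984 and 791 CPM against 697 and 483 in barrier-type cells and was not called. The caveolar coat genes Cav1 (716 and 543 CPM against 522 and 464 in barrier-type cells) and Cavin2 (878 and 727 against 616 and 443) were not called. Of the caveolae and transcytosis list 3 of 12 tested genes were called higher than in barrier-type cells and none lower, and 2 of 13 higher and 1 lower than in arterial-type cells. Scarb1, a lipoprotein receptor that takes part in transcytosis, was called higher in both comparisons, at 579 and 630 CPM, against 118 and 150, and 61.0 and 55.7.

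Of the fatty acid uptake list 5 of 10 tested genes were called higher and 3 lower than in barrier-type cells, and 1 of 7 higher and 1 lower than in arterial-type cells. Of all genes 5.24% were called higher and 4.76% lower in the former and 4.18% and 3.90% in the latter comparison. Fabp4, Cd36 and Fabp5, with at most 4 UMIs in barrier-type cells, entered the former test only through Plvap-positive cells. They could not have been called lower there, and Mfsd2a could not have been called higher. Fabp4, an intracellular fatty acid carrier, stood at 473 and 699 CPM against 1 UMI in all barrier-type cells, and at 608 and 1048 CPM in arterial-type cells, against which it was not called (log2 fold change -0.54). It was detected in 28.2% of the bone-associated members, and the 23 cells richest in it held 85.0% of its UMIs. Cd36, a fatty acid translocase, stood at 129 and 82.2 CPM, with no UMI in barrier-type cells and 189 and 125 CPM in arterial-type cells. Mfsd2a, the transporter of lysophosphatidylcholine across the sealed vessel, had no UMI in Plvap-positive cells, against 109 and 87.9 CPM in barrier-type cells. Aqp1, a water channel of permeable endothelium, stood at 334 and 1015 CPM, against 1 UMI in barrier-type cells and 58.3 and 64.4 CPM in arterial-type cells. Aqp1 differed between the 2 libraries of Plvap-positive cells by more than it did in arterial-type cells, and did not overlap either other class.

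By the size of the change, the 12 genes named as highest over barrier-type cells were Btnl9, Car8, Aqp1, Fabp4, Bmp6, Esm1, Igfbp3, Meox1, Cd300lg, Piezo2, Exoc3l4 and Slc43a3. Btnl9, a butyrophilin-like surface protein, had 400 UMIs (388 and 161 CPM) against none in barrier-type cells, at least 65.1-fold higher. Meox1, a homeobox transcription factor, stood at 235 and 229 CPM against 2 UMIs in barrier-type cells, and at 13.9 and 10.4 CPM in arterial-type cells. Cd300lg, a sialomucin of capillary endothelium, stood at 419 and 416 CPM against 5.73 and 3.74 in barrier-type cells. The 12 lowest included Tnfrsf19, Slc38a3, Frmd5, Edn3, Ccdc141, Prom1, Car14, Wnt5a, Mal and Ptn. Slc38a3, a glutamine transporter, had no UMI in Plvap-positive cells against 115 in barrier-type cells, at least 78.5-fold lower, and Edn3 (endothelin 3) none against 53, at least 36.2-fold lower. Ptn (pleiotrophin) stood at 68.5 and 43.0 CPM against 3907 and 3576. With DESeq2 the calls of Btnl9, Car8, Bmp6, Tnfrsf19, Slc38a3, Frmd5 and Edn3 were among those lost, and that of Bmp6 was also lost without either bone-associated library, with the direction kept in each case.

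Over arterial-type cells the 12 highest were Pcdh12, Esm1, Ces2e, Piezo2, Fam167b, Colgalt2, Car8, Btnl9, Aplnr, Trp53i11, Ramp3 and Abcg1. Esm1, Piezo2 (a mechanosensitive channel), Car8 and Btnl9 were thus named in both comparisons. Aplnr, the apelin receptor of veins and capillaries, stood at 112 and 193 CPM against 2.77 and 6.96, and Ramp3, a subunit of adrenomedullin receptors, at 303 and 256 CPM against 0 and 17.4. Ramp3 was also at 289 CPM in the T or NK cells of these libraries. The 12 lowest were Gja5, Scara3, Tox2, St8sia6, Prune2, Dusp26, Serpinf1, Eps8l2, Prom1, Tmem100, Egfl8 and Pi16. Gja5, the connexin of arterial endothelium, had no UMI in Plvap-positive cells against 52.7 and 104 CPM, at least 50.9-fold lower. With DESeq2 the calls of Btnl9, Ramp3, Gja5, Scara3 and Tox2 against arterial-type cells were lost, with the direction kept.

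The given name of these cells also includes venous endothelium, and here the data were divided. Of 12 tested venous genes 1 (Selp) was called higher than in barrier-type cells and 4 (Ackr1, Vwf, Vcam1 and Tmem252) lower, with a median log2 fold change of -0.39. Against arterial-type cells 5 of 11 were called higher (among them Nr2f2, Selp, Lrg1 and Bst1) and none lower. Over all genes, 5.24% were called higher and 4.76% lower than in barrier-type cells, and 4.18% and 3.90% than in arterial-type cells. The 1 venous gene called higher than in barrier-type cells was thus near the share of all genes. Nr2f2, the transcription factor of venous identity, stood at 193 and 175 CPM, against 212 and 271 in barrier-type and 33.3 and 19.1 in arterial-type cells. Vwf (von Willebrand factor) stood at 777 and 455 CPM, against 1597 and 1352 in barrier-type and 191 and 357 in arterial-type cells. The barrier gene Slc38a5 of the rule is also on the venous list. It was detected in 69.9% of bone-associated barrier-type cells and 0.855% of bone-associated members. The choice of cells could therefore favor lower calls of venous genes against barrier-type cells, and its part was not tested. The class as a whole is called Plvap-positive, after its rule, since the venous genes were divided.

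Among the listed venous genes, some were found in few cells and others in many. Ephb4, a receptor of venous identity, was detected in 65.8% of the bone-associated members, Il6st, a subunit of cytokine receptors, in 63.7% and Lrg1 in 47.9%. Of the 234 bone-associated members, 54 (23.1%) held a UMI of Vwf and 38 (16.2%) of Selp (P-selectin, which captures leukocytes). The 23 cells richest in each gene held 89.3% of the Vwf and 95.5% of the Selp UMIs. After each cell was thinned to 1500 UMIs (232 cells), 21 of the 34 cells with Vwf also held Selp, against 12.1% of all thinned cells. Of the same 34 cells 2 held Igfbp3, 1 held Esm1 and 1 held Gpihbp1, against 54.3%, 19.8% and 41.0% of all thinned cells. Of the 46 cells with Esm1, 35 held Igfbp3. These are descriptions of cells from 2 libraries, with the genes chosen after their values were seen, and no test was made.

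The same split appeared in both libraries when cells were grouped by Vwf and Selp. Cells with a UMI of at least 1 of these genes were 10 of 49 (20.4%) in library 1 and 49 of 185 (26.5%) in library 2, and 39 and 136 cells had neither. Depth differed between these cells, with a median of 12282 UMIs with at least 1 of the genes and 6635 with neither in library 1, and of 7490 and 5360.5 in library 2. What part depth had in the detection of Vwf and Selp was not tested. Mgp (matrix Gla protein) stood at 3908 and 4859 CPM in the former and 98.5 and 375 in the latter, Vcam1 at 839 and 292 against 41.8 and 28.8, Icam1 at 791 and 654 against 92.6 and 89.8, and Nr2f2 at 477 and 374 against 68.7 and 81.0. In the other direction, Esm1 stood at 47.7 and 44.7 CPM in the former and 415 and 403 in the latter, Igfbp3 at 47.7 and 181 against 2729 and 2303, and Cxcl12, a chemokine that retains leukocytes and progenitors, at 511 and 205 against 1693 and 1368. Col4a1 stood at 921 and 995 CPM against 2729 and 1947, and Gpihbp1 at 34.1 and 89.4 against 534 and 812. Ephb4 showed no such split, at 245 and 169 CPM in the former and 155 and 185 in the latter. Plvap itself was present on both sides, at 2278 and 2131 CPM in the former and 2738 and 2628 in the latter, and Emcn at 1180 and 1818 against 2021 and 2093. Aqp1 and Fabp4 were found on both sides, Fabp4 at 498 and 454 CPM against 463 and 815.

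**Figure D4:**
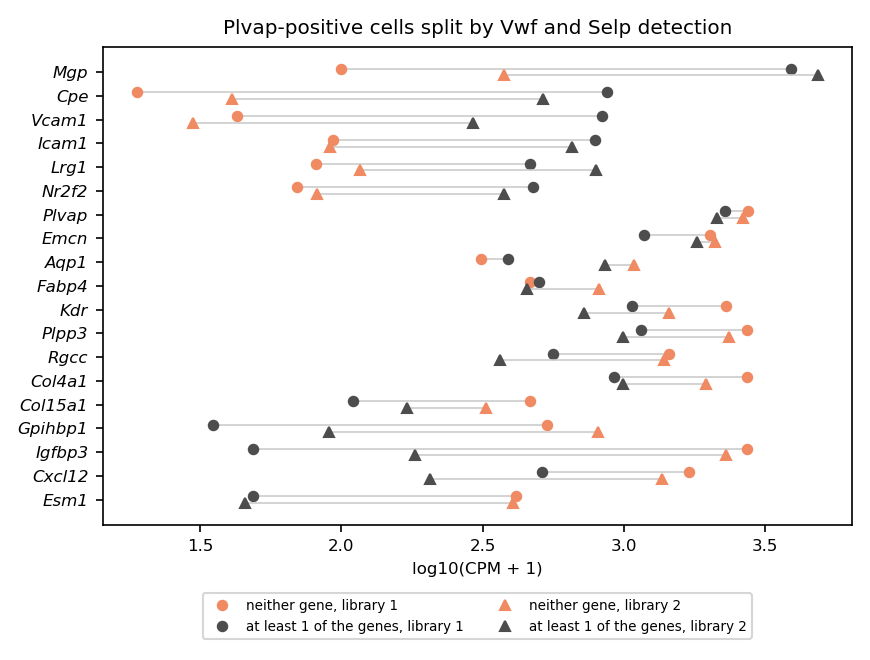
Levels as log10(CPM + 1) (x axis) in bone-associated Plvap-positive cells that held Vwf, Selp or both (dark) and in those that held neither (orange), joined for each of libraries 1 (circles) and 2 (triangles). Mgp to Nr2f2 are higher in the dark points of both libraries, Kdr to Esm1 are higher in the orange points, and Plvap and Emcn are somewhat higher in the orange points.

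Genes of leukocyte traffic were called in both directions. Of 14 adhesion and traffic genes 10 were tested against barrier-type cells, of which 3 (Selp, Jam3 and Podxl) were called higher and 2 (Vcam1 and Ackr1) lower, against 10.0% of all genes called. Against arterial-type cells 2 of 9, Selp and Jam3, were called higher and none lower. Podxl (podocalyxin), the most abundant, stood at 1252 and 750 CPM against 367 and 340, and Icam2 at 291 and 274 against 281 and 314. Jam3 was higher in both comparisons, at 204 and 206 CPM, against 5.73 and 20.6 in barrier-type cells. Of the chemokine and cytokine list 1 of 7 tested genes, Cxcl10, was called lower than in barrier-type cells (249 and 64.8 CPM against 312 and 294), and 1 of 6, Tnfsf10, a ligand of death receptors, was called higher than in arterial-type cells (270 and 178 CPM against 63.8 and 74.9). Of 19 interferon-induced genes tested 17 were not called and 2 (Ifitm1 and Cxcl10) were lower than in barrier-type cells, and none of 17 was called against arterial-type cells. The most abundant of them, Ly6e, stood at 2399 and 2051 CPM against 2551 and 2235 in barrier-type cells. Of the list of major histocompatibility genes of class I and II, 2 of 12 tested were called lower than in barrier-type cells and none higher. Against arterial-type cells 3 of 12 were called higher and none lower. The shares over all genes were 4.76% lower in the former and 4.18% higher in the latter comparison. Genes of class I were not called in either comparison (H2-D1 at 1778 and 2548 CPM against 1548 and 1799 in barrier-type cells). The class II gene Cd74 lay between the other classes, at 78.9 and 94.2 CPM, against 401 and 151 in barrier-type and 8.32 and 22.6 in arterial-type cells, and was called in both comparisons.

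Of the patterning transcription factors 4 of 15 tested genes (Meox1, Sox4, Maf and Ebf3) were called higher than in barrier-type cells and 7 (among them Foxf1, Foxf2, Foxq1, Tbx1, Tbx3 and Sox17) lower. Against arterial-type cells 5 of 14 were called higher, the same 4 genes and Nr2f2, and 4 lower (Foxq1, Tbx1, Tbx3 and Sox17). The shares over all genes were 5.24% higher and 4.76% lower against barrier-type cells, and 4.18% and 3.90% against arterial-type cells. Sox4 stood at 376 and 311 CPM, against 91.7 and 61.7 in barrier-type and 63.8 and 54.0 in arterial-type cells. Ebf1, the most abundant of the list, stood at 357 and 344 CPM against 284 and 389 in barrier-type cells and was not called.

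Genes that respond to tissue handling were called about as often as all genes against barrier-type cells (10.0% of all genes). Of 18 immediate-early genes 17 were not called against barrier-type cells and 1 (Ier3) was lower, and none was called against arterial-type cells, with median log2 fold changes of -0.54 and -0.50 against -0.01 and 0.01 over all genes. Fos stood at 3213 and 2319 CPM against 4466 and 2897 in barrier-type cells, and Jun at 2995 and 2634 against 4085 and 3568. Of 12 heat shock genes 2, Dnajb1 and Hsph1, were called lower than in barrier-type cells and none against arterial-type cells. Hsp90ab1, the most abundant of them, stood at 2097 and 2279 CPM against 2015 and 1833 in barrier-type cells. The median share of mitochondrial UMIs was 3.10% and 3.91% in the Plvap-positive cells of libraries 1 and 2, against 4.42% and 5.44% in barrier-type and 4.29% and 5.03% in arterial-type cells. Whether handling or cell quality had a part in any difference between classes was not tested.

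Markers of sinusoidal vessels were divided. The 2 that were tested were Stab1, a scavenger receptor, and the transcription factor Maf, detected in 57.3% and 27.8% of the bone-associated members. Both were called higher in both comparisons, where 5.24% and 4.18% of all genes were. Maf had 2 UMIs in barrier-type cells and could not have been called lower there, so these 2 calls say little about the list. Of the 8 sinusoidal markers Clec4g and Gata4 had no UMI in either library and Stab2 had none in library 1 and 1.51 CPM in library 2. Stab1 (170 and 173 CPM) was the most abundant, and the summed level of the list was 287 and 253 CPM, against 357 CPM in the T or NK cells of these libraries, where Maf was at 344 CPM. Of 8 lymphatic markers 5 had UMIs in library 1 (summed 179 CPM) and all 8 in library 2 (497 CPM), where Ccl21a reached 259 CPM. Those Ccl21a UMIs came from 3 cells, and 2 of the 185 cells of library 2 and none of the 49 of library 1 held 3 or more of the 6 genes Prox1, Lyve1, Mmrn1, Pdpn, Reln and Ccl21a. The most abundant lymphatic marker of library 1 was Flt4, which capillary cells also carry and which was detected in 54.3% of the members. Of the 2 lymphatic markers tested, Flt4 was called higher and Fxyd6 lower in both comparisons.

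Mural transcripts differed between the 2 libraries. Of 11 pericyte markers 3 had UMIs in library 1 (summed 81.0 CPM, Abcc9 the most abundant, with Rgs5, Pdgfrb and Cspg4 at 0) and all 11 in library 2 (412 CPM, Rgs5 the most abundant at 249). Of 8 smooth muscle markers 4 had UMIs in library 1 (66.5 CPM, Acta2 the most abundant, with Myh11 at 0) and all 8 in library 2 (990 CPM, Acta2 at 316), against 99.6 CPM in barrier-type cells, 689 in arterial-type cells and 646 in T or NK cells. Rgs5 was detected in 11 of the 234 members, and 4 cells held 5 or more of 19 mural markers. Abcc9, the only pericyte marker tested, was called higher in both comparisons (58.1 and 31.7 CPM, with none in the other classes), and the smooth muscle genes Acta2, Tagln and Myl9 were called higher than in barrier-type cells. The part of mural transcripts in these 4 calls was not tested gene by gene. Leaving the cells with 5 or more mural markers out gave 802 calls against barrier-type and 612 against arterial-type cells, against 809 and 628 with them.

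The lists of blood and connective tissue cells were led by genes that endothelium also carries or were at low levels, while the choroid plexus list was led by Ttr. The macrophage and microglia list summed to 35.3 and 76.1 CPM (6 and 8 of 11 markers, led by Lyz2 and Fcer1g, with C1qc, Cx3cr1 and P2ry12 at 0 in both libraries), and the T or NK list to 4.15 and 10.6 CPM (1 and 5 of 8, led by Lck, with Cd3e, Cd3g and Klrb1c at 0), against 798 and 3884 CPM in T or NK cells. The neutrophil list summed to 29.1 and 31.7 CPM, the red cell list to 27.0 and 81.4 and the platelet list to 10.4 and 16.6. The fibroblast list summed to 1331 and 1917 CPM, of which Mgp, also an endothelial gene, was 1258 and 1812, and Lum, Col3a1 and Pdgfra were at 0 in library 1. In library 2 these 3 genes had UMIs, as had 11 of the 12 fibroblast markers, and 6 of its 185 cells held 3 or more of them. The B cell list was led by Ebf1 (357 and 344 CPM), with Ms4a1 at 0. The choroid plexus list summed to 233 and 85.2 CPM, against 163 in barrier-type, 147 in arterial-type and 82.8 in T or NK cells. The glial and neuronal list summed to 320 and 314 CPM, almost all Gja1, with Aqp4, Mog and Snap25 at 0. The Schwann cell list (89.3 and 55.02 CPM) was led by Pmp22, with Sox10 at 0, and the bone and cartilage list summed to 27.0 and 4.52 CPM with Bglap and Ibsp at 0.

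Because the cortical surface gave only 8 Plvap-positive cells, from 3 libraries with at most 6 cells each, no test of gene expression between preparations was made. The 8 cells held a median of 11611.5 UMIs and 42.5 Plvap UMIs (from 15 to 54). All 8 held Esm1 (3 to 28 UMIs), Igfbp3 (6 to 123), Plpp3 (8 to 80), Plpp1 (13 to 55), Rgcc (4 to 45) and Col4a1 (15 to 27). Summed, Esm1 stood at 913 CPM, Igfbp3 at 2902 and Plpp3 at 4119. Esm1 and Plpp3 were above both bone-associated libraries, also with any 1 of the 3 cortical surface libraries left out (617 to 1031 CPM and 3818 to 4471 CPM). The Igfbp3 level rested on the single cell of library 1, which held 123 of its UMIs, and was 1708 CPM without it and 6248 CPM without the 6 cells of library 2. In the 412 barrier-type cells of the cortical surface the same genes stood at 0, 4.47 and 29.0 CPM.

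Cldn5, Lef1, Vwf and Selp were at or near 0 in the 8 cells. Cldn5 had 1 UMI in 1 of them, against 7585 CPM in barrier-type cells of the cortical surface, and Lef1, Vwf and Selp had none. Fabp4, present in both bone-associated libraries, had none either. Car4 was the reverse, detected in 7 of the 8 cells (79 UMIs, 924 CPM) and at 58.1 and 11.3 CPM in the bone-associated libraries. The single cell of cortical surface library 3, a library rich in hemoglobin transcripts, also held 398 UMIs of all 11 macrophage and microglia markers, including 69 of C1qa and 81 of Lyz2, and 41 UMIs of Pf4. In the 7 other cells these 11 markers had at most 2 UMIs per cell. Whether those transcripts affected any value of that cell was not tested.

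**Figure D5:**
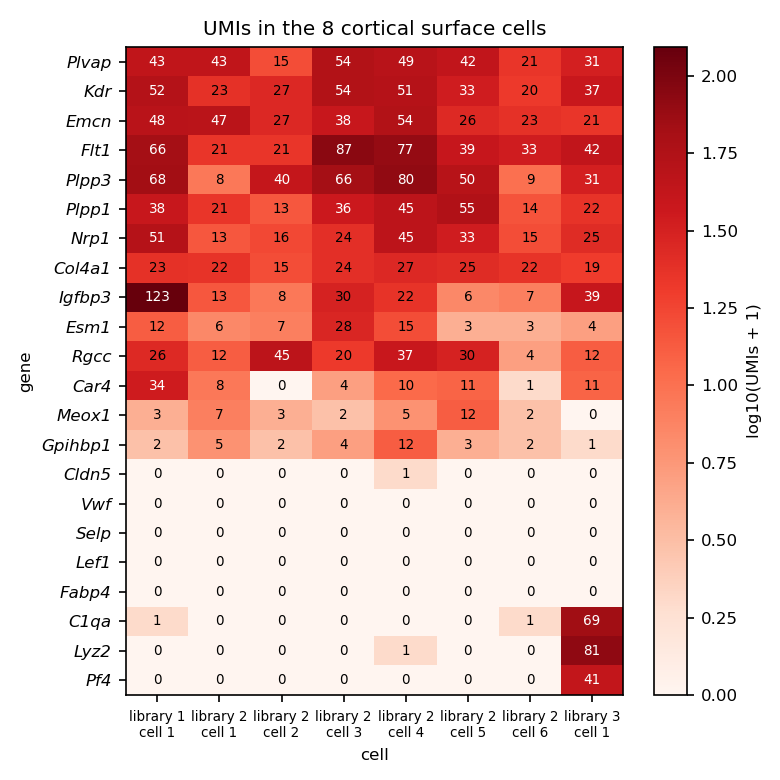
UMIs of 22 genes (rows) in each of the 8 Plvap-positive cells of the cortical surface (columns, by library and cell), shaded by log10(UMIs + 1) with the count printed. Plvap to Gpihbp1 are present in nearly all cells, Vwf, Selp, Lef1 and Fabp4 are at 0 in all 8, and C1qa, Lyz2 and Pf4 are high in the cell of library 3 alone.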

How the data were processed

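UMI counts per gene and barcode were deposited by the authors as one matrix per library, not normalized. Per the labels and the paper, reads were aligned to mm10 with Cell Ranger (version 3 in the submitters' processing notes, 6.1.2 in the matrix headers). The labels describe papain digestion of another brain region, whereas the study's methods give collagenase and dispase for these tissues. Symbols stand for Ensembl identifiers, of which 30934 of 31053 were found in GENCODE vM21 (GRCm38), the source of coordinates. Promoters were taken from RefSeq.

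The members and gene lists were chosen with earlier results of these data known. Counts were summed per library and class of at least 10 cells and tested with edgeR 4.0.16 (R 4.3.3, TMM, quasi-likelihood, library as a block) on genes found in more than 10% of the cells of at least 1 of the classes compared. The 20 genes of the rule were left out of counts of calls. The SE given with a log2 fold change was computed as its absolute value divided by the square root of the F statistic of the test. It is thus derived from the test and is not a spread measured between libraries. CPM were scaled to all UMIs of a class in a library. Doublets were kept in the main values, and 4 of 242 members were scored as doublets against simulated pairs. Named genes were the 12 with the largest log2 fold change in each direction among called genes with at least 50 UMIs and detection in at least 25% of cells of the higher class and the same direction in both libraries, without predicted or hemoglobin genes. From each list the members with the highest level in Plvap-positive cells were named, and the other genes named were chosen after their values were seen. A few genes that these rules name are not reported here.

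In simulated data for the barrier-type comparison (8107 genes), 88 of 100 genes changed by a log2 fold of 2 and 100 of 100 changed by 3 were recovered, with 0 unchanged genes called. In those for the arterial-type comparison (7794 genes), 87 of 100 and 100 of 100 were recovered, with 8 unchanged genes called. The changed genes were drawn from those above a minimum count, and the detection filter was off. Gene levels did not differ between simulated libraries, and the spread came from a fit to these data. These counts therefore do not cover genes all but absent from a class or differences between libraries. The tests planned between preparations, and of the interaction of class and preparation, were not run, since no cortical surface library held 10 members. Bone-associated libraries alone are the main fit. Alternatives were other limits on cells, thinning to 1500 UMIs, other normalizations and gene filters, DESeq2 1.42.0, no block, and leaving out each library. Chosen after seeing the data were a spread shared over all libraries and classes, a replicate block for the share, and leaving out cells with 5 or more mural markers.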

Additional observations from a re-analysis of the deposited data

How the results depend on the processing

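The share of Plvap-positive cells was higher in the bone-associated libraries under every alternative run, by 26.8 percentage points with at most 1 barrier gene and up to 41.7 with at most 5% mitochondrial UMIs, and by 28.9 to 42.1 with 1 library left out. With the replicate block, bone-associated minus cortical surface libraries 1 and 2 differed by 34.8 points (2 pairs, exact p = 0.5, the smallest allowed). The sources used here do not say whether a replicate number marks shared animals. As a share of all kept cells the means were 6.24% and 0.176%.

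The number of genes called against barrier-type cells (809) was 356 with DESeq2 (834 genes at an unadjusted p under 0.05), 285 of 2860 genes tested after thinning, and 413 to 443 with 1 bone-associated library left out, where the spread came from all remaining libraries and classes and a lone library was taken to vary like them. Against arterial-type cells (628) it was 278 with DESeq2 (681 at an unadjusted p under 0.05), 234 of 2853 after thinning, and 386 to 406. Thinning left fewer genes to test. Leaving out a library changed both the samples and the source of the spread, and their parts in the lower counts were not separated. With the spread shared over all libraries and classes 640 and 624 were called, and 611 and 551 of them were genes called above in the same direction. The other alternatives stayed within 1.5 times the counts. Of the genes called against barrier-type cells the direction turned for 7 without bone-associated library 2 and for 1 each without bone-associated library 1, with doublets removed, after thinning and with mural cells left out, and of those called against arterial-type cells for 1 without each bone-associated library. No named gene changed direction, and of the named genes 8 against barrier-type and 5 against arterial-type cells were not called with DESeq2, and 1 against barrier-type cells without each bone-associated library.

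The tests rest on 2 libraries of pooled mice. No paired analysis was possible for expression between preparations because the cortical surface libraries held too few members. Genes of low level in 31 to 185 cells per library and class cannot be called absent.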
